A study of Mus musculus with 16 samples.

Results

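The 70 histone genes described here are those whose symbol places them in the 4 clustered families of mouse histone genes (symbols starting with Hist1h to Hist4h), of 53714 genes in the count table. By symbol, they hold 6 genes of the linker histone H1 and 20, 19, 12 and 13 genes of the core histones H2A, H2B, H3 and H4. These numbers include 3 pseudogenes beside 67 coding genes. A gene was taken as measured where at least 10 reads were counted in at least 4 of the 16 libraries, and 13 of the 70 were. The 70 were chosen by symbol and the measured ones were selected on these read counts, the same that are described below.

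The 16 libraries came from livers of male mice aged 9 weeks, on a C57BL/6 background with a conditional Slc25a47 allele, Slc25a47tm1c(EUCOMM)Hmgu. Knockout mice (KO, Slc25a47hep-/-) lacked Slc25a47, a mitochondrial carrier of the liver, in hepatocytes, and their controls (WT) were Slc25a47hep+/+. The 4 groups of 4 libraries were fasted KO and fasted WT, both taken after an overnight fast, and fed KO and fed WT, both on chow. The Cre driver is not given in the sources used here. No label says that each library is a separate mouse, so the p-values measure the spread between these libraries.

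Histones package DNA into nucleosomes, which hold pairs of H2A, H2B, H3 and H4, while H1 binds the linker DNA between them. Most clustered histone genes are transcribed as cells copy their DNA, and their messages end in a conserved stem-loop that binds the protein Slbp, instead of a poly(A) tail. Some of these genes also give polyadenylated messages that read past the stem-loop, which is known of resting and differentiated cells. Libraries selected for poly(A), as here, capture tailed messages by design, so the values below are not of histone messages as a whole. The part of residual untailed RNA in these values was not tested.

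The site of the stem-loop is shown because it is where an untailed message would end and where the tailed ones must read on. In the GENCODE M21 transcripts (build GRCm38), the 16-base histone stem-loop consensus was looked for in the first 150 bases after the stop codon, on the transcript's strand, with at most 1 mismatch. It was found in 10 of the 13 measured genes. The sites of 7 of them follow in the direction of the transcript, with the stem-loop in capitals and 5 bases on either side.
Hist1h1c: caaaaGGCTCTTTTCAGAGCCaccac
Hist1h1d: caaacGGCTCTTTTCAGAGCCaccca
Hist1h2ac: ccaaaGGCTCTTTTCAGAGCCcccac
Hist1h2be: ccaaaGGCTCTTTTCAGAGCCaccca
Hist1h4h: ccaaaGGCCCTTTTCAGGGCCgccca
Hist1h4i: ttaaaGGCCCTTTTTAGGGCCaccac
Hist2h4: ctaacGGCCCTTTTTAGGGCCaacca
The H1, H2A and H2B sites shown have the same 16 letters in capitals and differ in the flanks. The Hist1h4i and Hist2h4 sites have 1 mismatch to the consensus. Hist1h2bc, Hist2h2be and Hist1h4j had no such site in the searched part of their annotated transcripts. Of 44432 transcripts of other genes, 3 (0.0068%) held a site by the same search.

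Beyond the stem-loop the annotated transcripts of the measured genes ran on. Their annotated length after the stop codon had a median of 1209 bases (93 to 4931), against 79 bases (0 to 2515) for the 54 coding genes that were not measured and have an annotated stop codon. At least 500 bases were annotated there in 9 of 13 measured and 8 of 54 other genes. A polyadenylation signal (AATAAA or ATTAAA, transcript strand) followed the stem-loop, or the stop codon where no stem-loop was found, in 11 of 13 measured and 11 of 54 other genes. The stem-loop itself was found in 10 of 13 and 32 of 54. However, 13 of the 54 others end at the stop codon in the annotation, and 0 of the measured genes do. No stem-loop or signal could be found in those 13, so these shares partly reflect where the annotation ends. Sequence copies also differed between these sets. A median of 24.6% of all 50-base stretches of a measured gene's transcripts occurred in another gene, against 64.8% for the genes not measured, and reads from such stretches can align to several places. These features describe the annotation, and their part in which genes were measured was not tested.

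**Figure D1:**
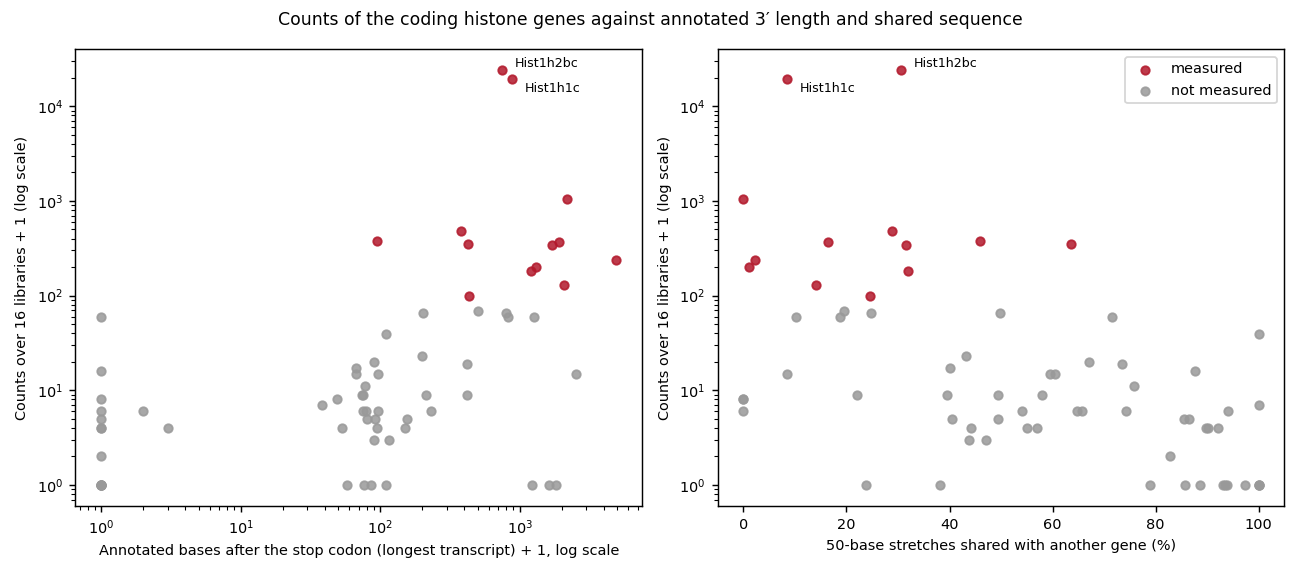
Reads over all 16 libraries (plus 1, log scale) for the coding histone genes, against the annotated bases after the stop codon (plus 1, log scale, left) and the percentage of 50-base stretches shared with another gene (right). Each point is a gene, red where measured and grey where not; Hist1h2bc and Hist1h1c stand far above all others in both panels, and the measured genes lie towards long 3' ends and low sharing.

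A pair of genes gave nearly all histone reads. Hist1h2bc, which codes for an H2B, took 50.3% of the 47816 reads on the 70 genes, and Hist1h1c, which codes for the linker histone H1.2, took 40.4%. The other 11 measured genes held 7.93% and the 57 genes not measured 1.43%. Per length, the mean over the 16 libraries was 147 TPM for Hist1h2bc and 86.6 TPM for Hist1h1c. Next came the H4 genes Hist1h4h with 5.74 TPM and Hist1h4i with 4.68 TPM, and the lowest measured gene was Hist1h1d with 0.221 TPM. The measured genes were 3 of 6 for H1, 3 of 19 for H2B, 2 of 20 for H2A, 1 of 12 for H3 and 4 of 13 for H4.

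The threshold was met most easily in fasted KO livers. All 13 measured genes had at least 10 reads in all 4 fasted KO libraries, whereas 4 had so in all 4 fasted WT libraries, 8 in all 4 fed KO and 7 in all 4 fed WT libraries. Just inside the threshold were Hist1h2ac and Hist1h4j, with 10 reads or more in 5 libraries, of which 4 were fasted KO and 1 fed KO. Just outside were Hist1h2bg, Hist1h2bh and Hist1h3d, each with 10 reads or more in 1 library. Without the fasted KO libraries 11 genes would have been measured, and in the 8 WT libraries alone 8. A gene that passed only through the fasted KO libraries, as Hist1h2ac and Hist1h4j did, had to be high there, so the counts of called genes below describe these 13 genes and support nothing about the 70.

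All libraries held between 19.6 and 27.3 M reads assigned to genes. The targeted gene Slc25a47 averaged 261 ± 77.1 CPM in fasted KO and 949 ± 129 CPM in fasted WT livers, and 126 ± 32.2 CPM in fed KO and 636 ± 154 CPM in fed WT livers (SD, n = 4 each). Its log2 fold change was -1.86 ± 0.25 in fasted (adjusted p = 8.06e-05) and -2.34 ± 0.25 in fed livers (adjusted p = 1.32e-05). The 8 hepatocyte markers, such as Alb and Ttr, summed to 83720 to 140248 CPM in every library. Reads aligned to several places, which were not assigned to genes, were 32.2% to 34.8% of counts in fasted KO, 40.4% to 45.7% in fasted WT, 31.97% to 39.3% in fed KO and 41.5% to 45.8% in fed WT libraries. Transcripts of 15 pancreatic acinar genes summed to between 0.796 and 1742 CPM in fasted WT libraries, most in replicates 2 and 4. They also reached 73.0 CPM in fasted KO replicate 1 and 16.9 CPM in fed KO replicate 3. Their sum was at most 1.55 CPM in the other KO and the fed WT libraries. Values without fasted WT replicates 2 and 4 are given where they change a call. In whole liver, fewer cells of a type and less RNA per cell cannot be told apart. CPM below is a gene's share of the reads assigned to genes, after TMM scaling of the libraries. A gene is called at an adjusted p under 0.05 over all 13905 genes tested, and fold changes are log2 ± SE from edgeR.

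After fasting, most measured histone genes were higher in KO than in WT livers. In fasted KO against fasted WT livers, 11 of the 13 measured genes were called higher and 0 lower, where 28.3% of all genes tested were called, 13.8% higher and 14.5% lower. The median log2 fold change of the 13 was 1.57, against 0.01 over all genes tested. The 2 genes not called were Hist1h2bc and Hist3h2a. All 11 called genes had every fasted KO library above every fasted WT library, as did 14.2% of all genes tested. Of the 8 genes that reach the threshold in WT libraries alone, a count chosen after these values were seen, 6 were called higher.

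In fed KO against fed WT livers, 3 of 13 were called higher and 0 lower, where 30.9% of all genes tested were called, 14.0% higher and 16.9% lower. These 3 were all H4 genes, Hist1h4h, Hist1h4i and Hist1h4j. The median of the 13 was 0.52 and that of all genes tested -0.01. With every gene scaled by library totals alone, the median of all genes tested itself moved to 0.21 in fed and 0.20 in fasted livers, and the members' calls were then 5 and 12, all higher, with Hist1h2bc and Hist2h3c2 added in fed and Hist3h2a in fasted livers. Whether the genotype difference itself changed with fasting was tested as a difference of the genotype effects. No measured histone gene was called in it by edgeR, where 1.70% of all genes tested were, 1.07% higher and 0.633% lower, while 6 had an unadjusted p under 0.05 and DESeq2 called 2 (Hist1h1d and Hist1h2be). Without fed KO replicate 2, 4 genes were called there (Hist1h1c, Hist1h1d, Hist1h2be and Hist2h3c2). Calls over all genes rose in these settings too. They were 149 higher and 88 lower of 13905 in the main fit, and 285 and 245 with DESeq2. Without fed KO replicate 2 they were 353 and 171 of 14064. An unadjusted edgeR p under 0.05 was found for 2371 of 13905 genes.

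**Figure D2:**
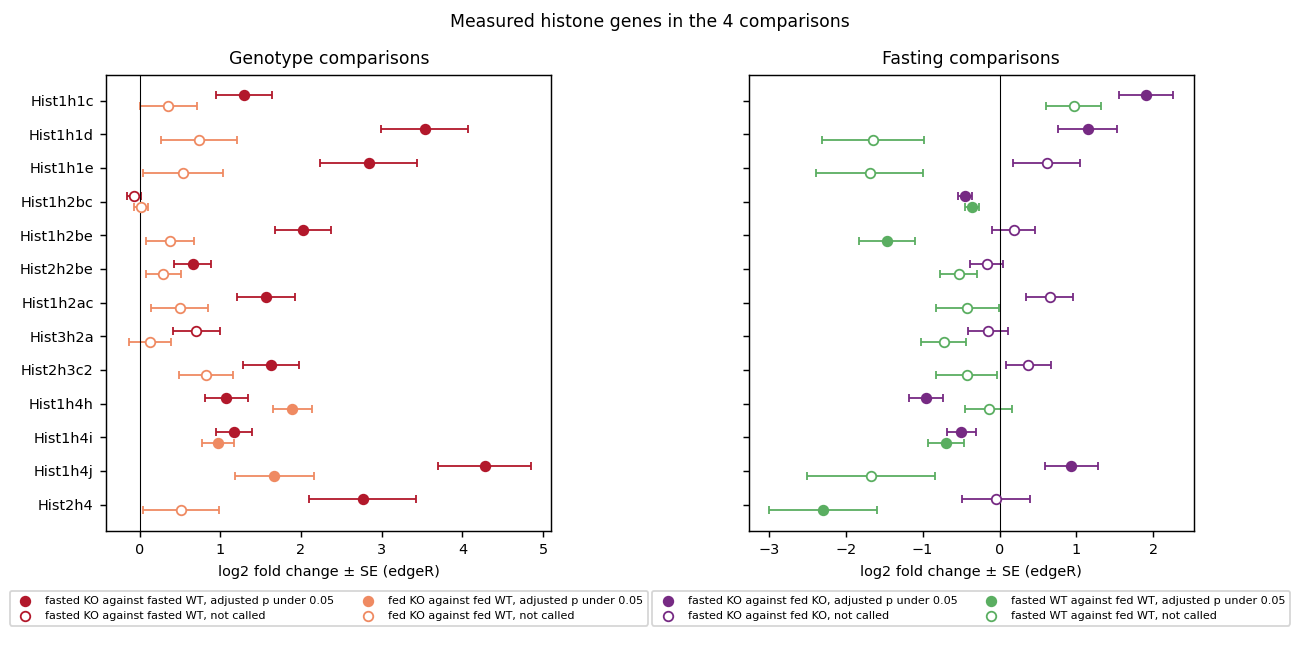
Log2 fold change ± SE (edgeR, 4 libraries a group) of the 13 measured histone genes, for KO against WT (left; fasted in red, fed in orange) and for fasted against fed (right; KO in purple, WT in green). Filled points have an adjusted p under 0.05; in the left panel 11 red points are filled and lie right of 0, while 3 orange points are. The fitted value of Hist1h4j in fasted livers rests on 2 reads in fasted WT libraries.

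The effect of the fast was compared within each genotype. In fasted WT against fed WT livers, 4 of 13 were called lower and 0 higher, where 34.5% of all genes tested were called, 18.3% lower and 16.2% higher, and the median of the 13 was -0.70, against -0.02 for all genes. In fasted KO against fed KO livers, 3 were called higher and 3 lower, where 41.4% of all genes tested were called, 21.1% higher and 20.3% lower. The median of the 13 was 0.18 there and that of all genes -0.0044. The genes called lower in both genotypes were Hist1h2bc and Hist1h4i. These comparisons share libraries with the genotype comparisons, so the 4 are not independent of each other.

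Among the linker histone genes, Hist1h1c (chr13:23738808-23740367, + strand, GRCm38) is the most abundant here. It had 72.8, 95.4, 135 and 135 CPM in fasted KO livers, 37.0, 43.4, 65.5 and 32.2 CPM in fasted WT, 23.0, 54.7, 22.4 and 16.6 CPM in fed KO and 25.3, 22.3, 21.04 and 22.8 CPM in fed WT livers. All fasted libraries of each genotype lay above all fed libraries of it, and all fasted KO above all fasted WT libraries, while fed KO and fed WT overlapped. The fold change was 1.30 ± 0.35 for fasted KO against fasted WT (adjusted p = 0.0141) and 1.91 ± 0.35 for fasted KO against fed KO (adjusted p = 0.000929). For fasted WT against fed WT it was 0.96 ± 0.35 and just missed the threshold (adjusted p = 0.0518), though it was called under 8 of 25 other settings (adjusted p = 0.00608 to 0.0481), among them leaving out fed KO replicate 2 or 4, fasted KO replicate 1 or fasted WT replicate 4. For fed KO against fed WT it was 0.36 ± 0.35 (adjusted p = 0.473). Without fasted WT replicates 2 and 4 the fasted genotype difference was 1.10 and no longer called (adjusted p = 0.114), and without fed KO replicate 2 the fed one was -0.14.

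Hist1h1d, for H1.3, and Hist1h1e, for H1.4, were far less abundant. Hist1h1d had 1.30, 1.70, 1.59 and 0.893 CPM in fasted KO livers, 0.00, 0.108, 0.223 and 0.103 CPM in fasted WT, 0.285, 1.11, 0.422 and 0.630 CPM in fed KO and 0.355, 0.599, 0.139 and 0.343 CPM in fed WT livers. Fasted KO libraries were the highest save for fed KO replicate 2, and fasted WT libraries the lowest, apart from fed WT replicate 3. Its fold change was 3.53 ± 0.54 for fasted KO against fasted WT (adjusted p = 8.74e-05) and 1.15 ± 0.39 for fasted KO against fed KO (adjusted p = 0.0228). The call against fed KO was lost without fed KO replicate 1 or 3 or fasted KO replicate 2 or 3, with adjusted p of 0.0594 to 0.0779. Hist1h1e had 0.713, 0.891, 0.918 and 0.854 CPM in fasted KO livers, 0.212, 0.00, 0.178 and 0.0516 CPM in fasted WT, 0.693, 0.842, 0.384 and 0.242 CPM in fed KO and 0.152, 0.639, 0.0927 and 0.588 CPM in fed WT livers. The fasted KO libraries lay close together and above all WT libraries, and the fed groups overlapped. Its fold change for fasted KO against fasted WT was 2.84 ± 0.60 (adjusted p = 0.00166). Its annotated span overlaps that of Hist1h2be on the same strand, so some reads of the 2 genes may not have been assigned.

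Promoters of H1 genes are shown because the 3 measured H1 genes were all called higher in fasted KO than in fasted WT livers. That was not particular to H1, since the 4 measured H4 genes were all called higher too. Of these H4 genes, Hist1h4j was measured only through the fasted KO libraries. In WT libraries alone Hist1h1d, Hist1h1e and Hist2h4 would not have been measured either. These counts by class therefore describe the measured genes only. Of 70 histone genes, 62 had a promoter of 250 bases before to 50 bases after the start in RefSeq (GRCm38.p6), 63 promoters in all. These were searched on both strands for 4 motifs. One was AAACACA, known as an element of H1 promoters, which stood in 5 of 6 H1 promoters and in 7.18% of all 32851 promoters. The CCAAT box stood in all 6 H1 promoters, in 54 of the 63 and in 37.4% of all promoters. Of 12 H4 promoters, 0 held AAACACA and 3 held CCAAT. The part of these motifs in the calls was not tested. Hist1h1c's promoter (chr13:23738557-23738856, + strand) and Hist1h1e's (chr13:23622509-23622808, - strand) are printed in the direction of the gene, with matches to these letters in capitals.
Hist1h1c: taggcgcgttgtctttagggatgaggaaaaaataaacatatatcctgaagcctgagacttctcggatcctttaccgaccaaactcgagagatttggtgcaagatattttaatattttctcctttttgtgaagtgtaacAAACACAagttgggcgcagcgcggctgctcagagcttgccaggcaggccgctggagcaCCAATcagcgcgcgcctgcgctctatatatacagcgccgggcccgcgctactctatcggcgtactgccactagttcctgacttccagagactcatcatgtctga
Hist1h1e: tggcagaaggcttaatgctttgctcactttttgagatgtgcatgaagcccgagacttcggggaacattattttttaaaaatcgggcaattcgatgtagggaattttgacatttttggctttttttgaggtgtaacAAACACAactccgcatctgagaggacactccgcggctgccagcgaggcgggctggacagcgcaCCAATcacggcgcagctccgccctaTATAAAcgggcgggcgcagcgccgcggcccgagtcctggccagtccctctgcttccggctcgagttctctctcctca
AAACACA began 112 bases before the start in Hist1h1c, 115 in Hist1h1e and 122 in Hist1h1d, and CCAAT 54, 52 and 51 bases before it. The 3 unmeasured H1 genes held CCAAT too and AAACACA in 2 cases. The octamer ATTTGCAT stood in 7 H2A and 7 H2B promoters and in no H1, H3 or H4 promoter, against 1.74% of all promoters. The TATA box letters TATAAA stood in 35 of 63, against 13.6%. A match is a description of the letters and not a bound site.

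Among the H2B genes, Hist1h2bc (chr13:23684199-23692908, + strand) was lower after fasting in both genotypes. It had 56.2, 59.0, 51.6 and 56.4 CPM in fasted KO livers, 46.9, 59.4, 60.1 and 67.9 CPM in fasted WT, 71.9, 79.0, 74.8 and 78.8 CPM in fed KO and 77.8, 74.0, 68.9 and 79.8 CPM in fed WT livers. All fasted libraries lay below all fed libraries, and KO and WT overlapped in both states. Its fold change was -0.45 ± 0.09 for fasted KO against fed KO (adjusted p = 0.000501) and -0.36 ± 0.09 for fasted WT against fed WT (adjusted p = 0.00375). The genotype differences were -0.07 ± 0.09 in fasted (adjusted p = 0.591) and 0.02 ± 0.09 in fed livers (adjusted p = 0.891). The fed result depends on the scaling. With library totals alone the fed difference was 0.24 and called (adjusted p = 0.0376). In TPM, fed KO libraries (187 to 197) lay above fed WT libraries (141 to 161). Its annotated message spans 2 exons and holds no stem-loop, and 30.6% of its 50-base stretches occur in other genes.

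The read ratio of Hist1h1c to Hist1h2bc was 1.30 to 2.62 in fasted KO, 0.474 to 1.09 in fasted WT, 0.211 to 0.693 in fed KO and 0.286 to 0.324 in fed WT livers. Hist1h1c was the larger of the pair in all 4 fasted KO libraries and 1 fasted WT library. It made up 50.1% to 67.0% of histone CPM in fasted KO, 30.3% to 49.5% in fasted WT, 15.5% to 35.4% in fed KO and 20.4% to 22.3% in fed WT livers. The ratio is within a library and does not depend on its scaling, but it is not corrected for length.

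Hist1h2be (chr13:23583670-23621124, - strand), another H2B gene, was higher in fasted KO than in fasted WT livers. It had 1.85, 1.17, 1.29 and 1.28 CPM in fasted KO livers, 0.159, 0.269, 0.446 and 0.465 CPM in fasted WT, 1.39, 1.8, 0.921 and 0.776 CPM in fed KO and 1.22, 1.04, 0.649 and 0.882 CPM in fed WT livers. All fasted WT libraries were below all others. The fold change was 2.02 ± 0.35 for fasted KO against fasted WT (adjusted p = 0.000255) and -1.46 ± 0.37 for fasted WT against fed WT (adjusted p = 0.00439). Hist2h2be, an H2B gene on chromosome 3 with a long 3' end and no stretch shared with another gene, had 3.15, 3.20, 2.71 and 3.18 CPM in fasted KO livers, 2.17, 1.72, 2.23 and 1.60 CPM in fasted WT, 3.34, 4.44, 3.53 and 2.38 CPM in fed KO and 2.84, 4.24, 1.99 and 2.06 CPM in fed WT livers. Its fasted KO libraries lay above its fasted WT libraries, with a fold change of 0.66 ± 0.23 (adjusted p = 0.0406). That call was lost without any of fasted KO replicates 1, 2 and 4 or fasted WT replicates 1, 2 and 4, with adjusted p of 0.0543 to 0.101, and without fasted WT replicates 2 and 4 together it was 0.47 (adjusted p = 0.265).

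**Figure D3:**
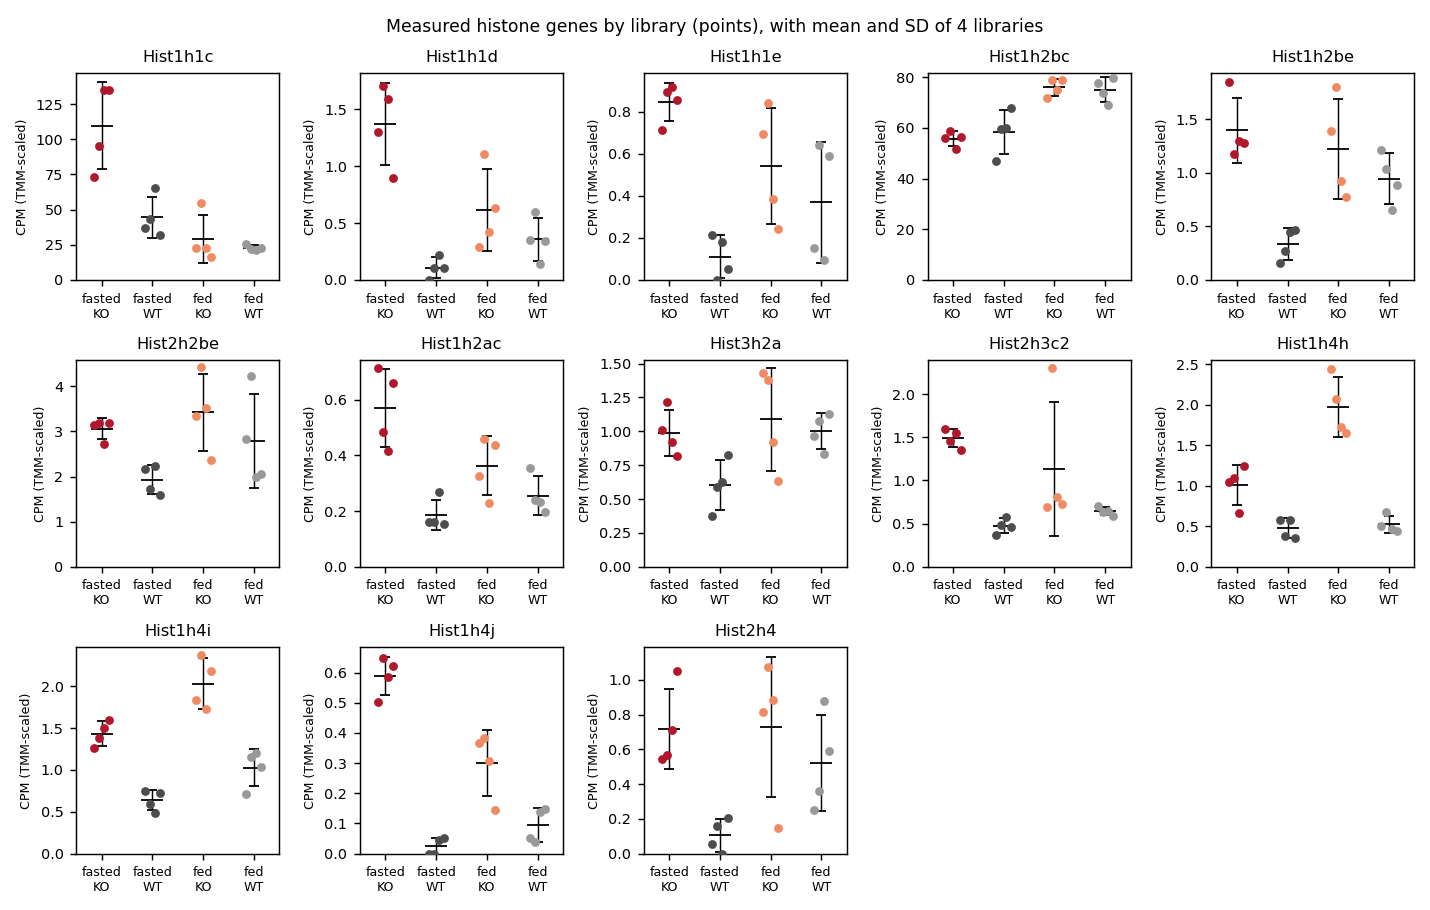
CPM (TMM-scaled, linear axes from 0) of the 13 measured histone genes in each library (points), with the mean and SD of 4 libraries (bars), for fasted KO, fasted WT, fed KO and fed WT livers. In 11 panels every fasted KO point lies above every fasted WT point; Hist1h2bc and Hist3h2a are the exceptions.

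Of the 2 measured H2A genes, Hist1h2ac lies head to head with Hist1h2bc, their annotated starts 250 bases apart, the only one of 14 such pairs of histone genes here with both members measured. Hist1h2ac had 0.713, 0.486, 0.417 and 0.660 CPM in fasted KO livers, 0.159, 0.161, 0.268 and 0.155 CPM in fasted WT, 0.326, 0.459, 0.230 and 0.436 CPM in fed KO and 0.355, 0.240, 0.232 and 0.196 CPM in fed WT livers. Fasted KO libraries were above all fasted WT libraries, with a fold change of 1.57 ± 0.35 (adjusted p = 0.00267). Since Hist1h2ac was measured only through the fasted KO libraries, it had to be high there. Its fasted difference is therefore a description and supports nothing further. Hist3h2a, on chromosome 11, averaged 0.989 ± 0.170 CPM in fasted KO, 0.603 ± 0.186 in fasted WT, 1.09 ± 0.381 in fed KO and 1.001 ± 0.131 in fed WT livers (SD, n = 4 each). Its fold change for fasted KO against fasted WT was 0.70 ± 0.29 (adjusted p = 0.0769), and with the main settings it was called in no comparison. Without fasted WT replicate 4 that difference was 0.88 and called (adjusted p = 0.0468). Fasted WT against fed WT was then called too, at -0.90 (adjusted p = 0.0367). Without fed KO replicate 4 the latter was -0.72 and called (adjusted p = 0.0415). The span of Hist3h2a overlaps Trim17.

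Hist2h3c2, the only measured H3 gene, had 1.59, 1.46, 1.54 and 1.36 CPM in fasted KO livers, 0.371, 0.484, 0.580 and 0.465 CPM in fasted WT, 0.693, 2.30, 0.806 and 0.727 CPM in fed KO and 0.710, 0.639, 0.649 and 0.588 CPM in fed WT livers. The fasted KO libraries lay well above the fasted WT libraries, and of the fed KO libraries replicate 2 stood alone. The fold change was 1.63 ± 0.35 for fasted KO against fasted WT (adjusted p = 0.00175) and 0.82 ± 0.34 for fed KO against fed WT (adjusted p = 0.0709). Without fed KO replicate 2 the fed difference was 0.20 (adjusted p = 0.598), and without fed KO replicate 1 or 4 it was called, with adjusted p = 0.0356 and 0.0446. Of its 50-base stretches 63.5% occur in other genes, so its level is uncertain.

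Of the 4 measured H4 genes, 3 were called higher in KO than in WT livers both fasted and fed. Among these 3, Hist1h4j was measured only through the fasted KO libraries. Hist1h4h had 1.05, 1.09, 0.668 and 1.24 CPM in fasted KO livers, 0.583, 0.376, 0.580 and 0.362 CPM in fasted WT, 2.45, 2.07, 1.73 and 1.65 CPM in fed KO and 0.507, 0.679, 0.463 and 0.441 CPM in fed WT livers. KO libraries were above WT libraries in both states, and fed KO libraries above all others. The fold change was 1.08 ± 0.27 in fasted (adjusted p = 0.00588) and 1.89 ± 0.25 in fed livers (adjusted p = 1.67e-05), and -0.96 ± 0.22 for fasted KO against fed KO (adjusted p = 0.00192). Without fasted WT replicates 2 and 4 the fasted difference was 0.80 (adjusted p = 0.0897). Its annotated 3' end is the shortest of the 13, at 93 bases after the stop codon.

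Hist1h4i had 1.26, 1.38, 1.5 and 1.59 CPM in fasted KO livers, 0.743, 0.592, 0.491 and 0.723 CPM in fasted WT, 1.83, 2.37, 1.73 and 2.18 CPM in fed KO and 0.710, 1.16, 1.20 and 1.03 CPM in fed WT livers. Again each KO library exceeded each WT library of the same state. The fold change was 1.17 ± 0.22 in fasted (adjusted p = 0.000668) and 0.97 ± 0.20 in fed livers (adjusted p = 0.00121). Fasted against fed it was -0.50 ± 0.19 in KO (adjusted p = 0.0400) and -0.70 ± 0.23 in WT livers (adjusted p = 0.0264). The fasting call in KO livers was lost under 7 of 25 settings (adjusted p up to 0.119), among them leaving out fed KO replicate 2 or 4 or fasted KO replicate 1, 2 or 3. That in WT livers was lost under 8 (adjusted p up to 0.0908), among them leaving out fed WT replicate 2 or 3 or fasted WT replicate 2 or 3, and without fasted WT replicates 2 and 4 together the WT value was -0.76 (adjusted p = 0.0726).

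Hist1h4j had 0.503, 0.648, 0.584 and 0.621 CPM in fasted KO livers, 0.00, 0.00, 0.0446 and 0.0516 CPM in fasted WT, 0.367, 0.383, 0.307 and 0.145 CPM in fed KO and 0.0507, 0.0400, 0.139 and 0.147 CPM in fed WT livers. The fasted groups stood wholly apart, and the fed groups overlapped by fed KO replicate 4. Since Hist1h4j was measured only through the fasted KO libraries, it had to be high there. Its fasted difference is therefore a description and supports nothing further. With 58 reads in fasted KO and 2 in fasted WT livers the ratio of the summed reads, scaled by depth, was 23.4, with an exact 95% interval of 6.19 to 198 that covers counting error only (adjusted p of the fitted difference = 2.56e-05). The fed difference was 1.67 ± 0.49 (adjusted p = 0.0150) and was lost without fed WT replicate 2 (adjusted p = 0.0563). Fasted KO exceeded fed KO by 0.93 ± 0.34 (adjusted p = 0.0347), a call lost without fed KO replicate 3 or 4 or fasted KO replicate 2, 3 or 4 (adjusted p up to 0.102). Hist2h4, an H4 gene on chromosome 3, had 0.545, 0.567, 0.710 and 1.05 CPM in fasted KO livers, 0.0530, 0.161, 0.00 and 0.207 CPM in fasted WT, 0.815, 1.07, 0.882 and 0.145 CPM in fed KO and 0.254, 0.360, 0.880 and 0.588 CPM in fed WT livers. Fasted WT libraries were below all fasted KO and all fed WT libraries. The fold change was 2.76 ± 0.66 for fasted KO against fasted WT (adjusted p = 0.00401) and -2.30 ± 0.70 for fasted WT against fed WT (adjusted p = 0.0164), the second of which was lost without fed WT replicate 3 (adjusted p = 0.0586) or fasted WT replicate 3 (adjusted p = 0.0523).

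The 57 genes not measured could be followed by their summed reads. Of them 13 had no read in any library, and no count exceeded 11. Together they gave 51 to 80 reads in fasted KO libraries, 15 to 22 in fasted WT, 40 to 73 in fed KO and 23 to 42 in fed WT libraries, which came to 2.13 to 3.11, 0.796 to 1.14, 1.94 to 2.80 and 1.13 to 2.13 CPM. Fasted KO and fasted WT did not overlap, and fed KO and fed WT did. Of single genes tested, 14.2% had every fasted KO library above every fasted WT library, and 15.3% had every one below. Of the 44 genes with reads, 32 had more reads in fasted KO than in fasted WT livers, 6 fewer and 6 as many; for fed KO against fed WT these counts were 28, 8 and 8. These numbers were not scaled by depth gene by gene and were not tested as a group. Median depth was 23.7 M reads in fasted KO and 20.9 M in fasted WT libraries. With library totals alone, the median log2 fold change of all genes tested was 0.20 in fasted and 0.21 in fed livers. Raw reads of other genes therefore lean towards KO too, and the share of all genes with more raw reads in KO was not counted.

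**Figure D4:**
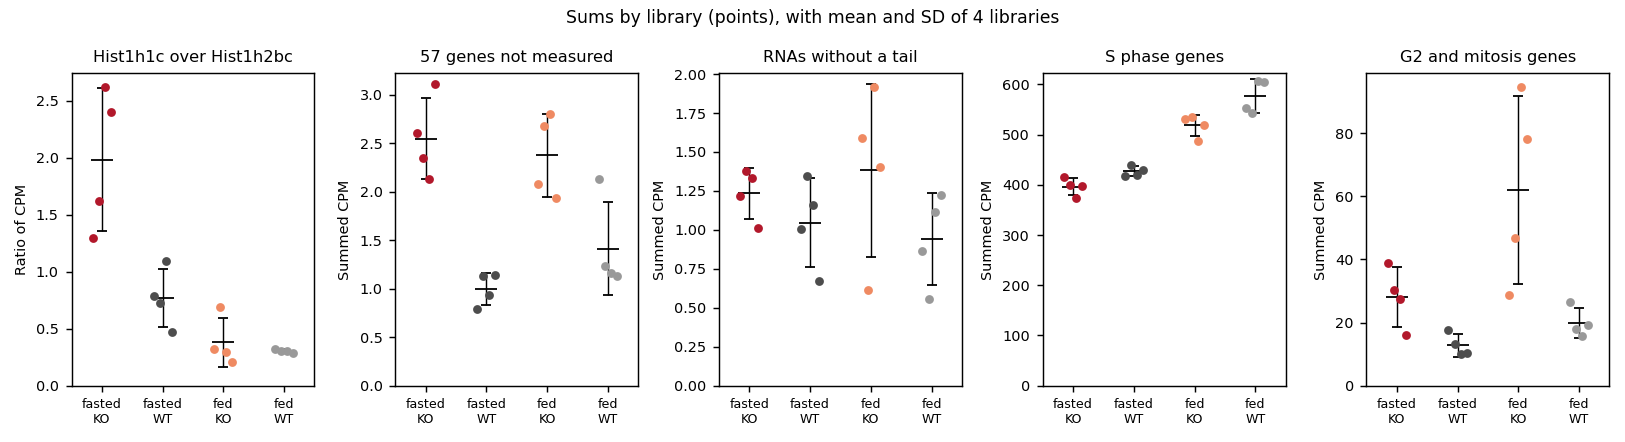
Per-library values (points) with the mean and SD of 4 libraries, for the Hist1h1c to Hist1h2bc read ratio and the summed CPM of the 57 unmeasured histone genes, of RNAs known to lack a poly(A) tail, of S phase genes and of G2 and mitosis genes. The unmeasured histone genes lie at 2.13 to 3.11 CPM in fasted KO and 0.796 to 1.14 CPM in fasted WT livers. The RNAs without a tail lie at 1.01 to 1.38 and 0.671 to 1.34 CPM there. Of the 18 such RNAs, 10 to 14 had no read in a given library, so their sum is near the floor. The part of untailed RNA in the histone differences was not tested. In the S phase sum Slc29a1 alone holds 187 to 317 CPM of 374 to 607 CPM.

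Genes that act on histone messages were read from lists chosen with results of these data known. Over all genes tested, 28.3% were called in fasted KO against fasted WT and 30.9% in fed KO against fed WT livers. For fasted against fed livers these shares were 41.4% in KO and 34.5% in WT. They stand beside the list counts here and below. Of 19 tested genes of histone mRNA 3' processing and decay, 6 were called higher and 2 lower in fasted KO than in fasted WT livers, and 3 higher and 2 lower in fed KO than in fed WT livers. Zcchc6, a uridylyltransferase that marks histone mRNA for decay, was lower in KO, with -0.49 ± 0.07 in fasted (adjusted p = 2.76e-05) and -0.47 ± 0.07 in fed livers (adjusted p = 4.19e-05). Slbp, the stem-loop binding protein, was lower in fasted KO than in fasted WT livers, at -0.39 ± 0.12 (adjusted p = 0.0185), and Sympk, the scaffold of the cleavage complex, was higher by 0.32 ± 0.07 in fasted (adjusted p = 0.00210) and 0.28 ± 0.07 in fed KO livers (adjusted p = 0.00457). In fasted against fed livers, 4 of the 19 were called higher and 2 lower in KO, and 0 higher and 3 lower in WT. Eri1, an exonuclease that trims histone mRNA ends, was lower in fasted than in fed livers, with -0.33 ± 0.11 in KO (adjusted p = 0.0169) and -0.46 ± 0.11 in WT (adjusted p = 0.00240).

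Between genotypes, 28.3% of all genes tested were called in fasted and 30.9% in fed livers. Of 17 polyadenylation genes, 2 were called higher and 0 lower in fasted KO than in fasted WT livers, and 4 higher and 1 lower in fed KO than in fed WT livers. Both called in fasted livers were Pabpc1, the cytoplasmic poly(A)-binding protein (0.59 ± 0.09, adjusted p = 9.19e-05), and Papola, the poly(A) polymerase (0.24 ± 0.08, adjusted p = 0.0296). In fasted against fed livers 2 were higher and 5 lower in KO, and 0 higher and 4 lower in WT. A list of RNAs known to lack a tail was read as a measure of the untailed RNA left in the libraries. Of 18 found, 2 had enough reads to be tested. None was called in fasted KO against fasted WT livers, where their sum was 1.01 to 1.38 and 0.671 to 1.34 CPM. In fed livers Rn7sk, the 7SK RNA, was called higher in KO (1.41 ± 0.49, adjusted p = 0.0376), with sums of 0.612 to 1.92 CPM in fed KO and 0.559 to 1.23 CPM in fed WT livers. The part of residual untailed RNA in the histone differences was not tested.

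Genes of DNA replication were counted beside the histone genes. Between genotypes, 28.3% of all genes tested were called in fasted and 30.9% in fed livers. Between fasted and fed livers, 41.4% were called in KO and 34.5% in WT. Of 34 S phase genes, 2 were called higher and 4 lower in fasted KO than in fasted WT livers. In fed KO against fed WT livers 8 were higher and 2 lower, and in fasted against fed livers 1 was higher and 22 lower in KO, and 2 higher and 14 lower in WT. Of their summed level, 374 to 607 CPM over the 16 libraries, Slc29a1, a nucleoside transporter, made up 187 to 317 CPM and Mcm10, a replication initiation factor, 39.6 to 106 CPM. Rrm2, a subunit of ribonucleotide reductase, was -1.84 ± 0.22 in fasted KO against fed KO (adjusted p = 3.30e-06) and -1.15 ± 0.22 in fasted WT against fed WT livers (adjusted p = 0.000526). Of 20 genes of G2 and mitosis, 11 were called higher and 0 lower in fasted KO than in fasted WT livers, and 18 higher and 0 lower in fed KO than in fed WT livers. Their sums were 15.95 to 39.0 CPM in fasted KO, 10.1 to 17.6 in fasted WT, 28.7 to 94.7 in fed KO and 15.8 to 26.5 in fed WT livers. In fasted against fed livers 0 were higher and 17 lower in KO, and 0 higher and 3 lower in WT. The fold changes of Ube2c, an enzyme of the anaphase-promoting complex, were 1.81 ± 0.49 in fasted (adjusted p = 0.00983) and 2.66 ± 0.42 in fed livers (adjusted p = 0.000144). The part of dividing cells in the histone differences was not tested.

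Replacement histones are made outside S phase from tailed messages. Of 10 tested, 0 were called higher and 2 lower in fasted KO than in fasted WT livers, beside 28.3% of all genes tested that were called, H2afv (-0.37 ± 0.09, adjusted p = 0.00584) and H3f3b (-0.37 ± 0.13, adjusted p = 0.0350). In fed KO against fed WT livers 3 were higher and 1 lower, beside 30.9% of all genes tested, with Cenpa, the centromere histone, at 0.57 ± 0.14 (adjusted p = 0.00520). In fasted against fed livers 0 were higher and 4 lower in each genotype. Of 23 histone chaperone genes, 4 were higher and 4 lower in fasted KO than in fasted WT livers, beside the same 28.3% of all genes tested. In fed KO against fed WT livers 3 were higher and 3 lower, beside 30.9%. Rbbp4, a subunit of chromatin assembly factor 1, was -0.52 ± 0.07 in fasted (adjusted p = 3.43e-05) and -0.36 ± 0.07 in fed KO livers (adjusted p = 0.000995).

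Among other cell types, markers of stellate cells moved with genotype, with 3 of 6 called higher in fasted KO than in fasted WT and 5 of 6 in fed KO than in fed WT livers, 0 lower in both. Over all genes tested, 28.3% were called in fasted livers (13.8% higher) and 30.9% in fed livers (14.0% higher). The stellate sum was 159 to 187 CPM in fasted KO, 123 to 139 in fasted WT, 190 to 209 in fed KO and 133 to 156 in fed WT livers. Of lymphoid, endothelial and cholangiocyte markers none of the 5 tested in each list were called between genotypes in either state, nor were the 2 neutrophil markers tested. Of 6 macrophage markers 1, Cd68, was called higher in KO in each state, at 0.52 ± 0.15 in fasted (adjusted p = 0.0168) and 0.55 ± 0.15 in fed livers (adjusted p = 0.00949). Of 7 erythroid genes tested, 0 were called higher and 2 lower in fasted KO than in fasted WT livers, Alas2, an enzyme of heme synthesis (-0.74 ± 0.13, adjusted p = 0.000376), and Tfrc, the transferrin receptor (-0.63 ± 0.18, adjusted p = 0.0161). In fed KO against fed WT livers Tfrc was called higher (0.55 ± 0.18, adjusted p = 0.0324) and Alas2 lower (-0.88 ± 0.13, adjusted p = 6.75e-05). The erythroid sum was 148 to 274 CPM in fasted KO, 208 to 245 in fasted WT, 166 to 252 in fed KO and 258 to 285 in fed WT livers, so fed KO libraries lay below fed WT libraries. Of 8 hepatocyte markers 4 were called lower and 0 higher in KO than in WT livers in each state. The part of these cell types in the histone differences was not tested.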

How the data were processed

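Stranded poly(A) libraries were made from 500 ng of liver RNA, per the labels' protocols. Values are the authors' raw counts per gene; the submitters' processing notes name HTSeq 0.9.1, STAR 2.5.3a and cutadapt 1.8 with build GRCm38. No strand setting or annotation release is named there. The table's 5 summary lines were left out of totals. Reads aligned to several places stand in such a line, so genes with close copies may be undercounted.

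Counts were fitted with edgeR 4.0.16 (R 4.3.3) after filterByExpr, TMM scaling and a model of the 4 groups, with quasi-likelihood F tests, robust estimation and Benjamini-Hochberg adjustment over 13905 genes; SE is the fold change over the square root of F. CPM uses TMM factors and TPM uses GENCODE M21 lengths. Transcripts came from GENCODE M21 and promoters from RefSeq. Alternatives included DESeq2 1.42.0 size factors and Wald test, other filters, a replicate block and each library left out.

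The histone genes, gene lists and tests were chosen with earlier results of these data known. Per-library values are given for measured genes with a mean of at least 1 CPM or a call in any contrast, and up to 4 called genes were eligible per list. Counting the genes measured in WT libraries alone or without fasted KO libraries was added after seeing the data. Replicate numbers were treated as names. Libraries of different groups with the same number had correlations of -0.174 to 0.251, after group means were removed. Libraries with differing numbers were not compared, so whether the numbers pair the libraries was not tested.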

Additional observations from a re-analysis of the deposited data

Results flagged for a closer look

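Within groups of 4 libraries, the highest or lowest library stood apart from the rest in 4 of 52 groups of measured histone gene levels, and chance alone flags about 1 in 20. Hist1h1c was at 54.7 CPM in fed KO replicate 2, against 16.6 to 23.0 CPM in the other fed KO libraries. Hist2h3c2 was at 2.3 CPM in the same library, against 0.693 to 0.806 CPM in the others. Hist1h2ac was at 0.268 CPM in fasted WT replicate 3, against 0.155 to 0.161 CPM in the others. Hist2h2be was at 2.71 CPM in fasted KO replicate 3, against 3.15 to 3.20 CPM in the others.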

How the results depend on the processing

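With library totals alone 5 histone genes were called in fed KO against fed WT livers, and all genes tested then split into 4877 higher and 915 lower, against 1948 and 2351 with TMM scaling; in fasted KO against fasted WT livers that split was 4301 and 902, against 1918 and 2011. Over leaving out each library, the calls numbered 3 to 4 for fed KO against fed WT, 10 to 11 for fasted KO against fasted WT, 3 to 6 for fasted WT against fed WT, 3 to 6 for fasted KO against fed KO (3 without fasted KO replicate 2 or 3) and 0 to 4 for the difference of the genotype effects (4 without fed KO replicate 2). That difference had 1 call with no filter (Hist1h1d) and 2 with the DESeq2 Wald test. Over all genes it had 169 calls higher and 82 lower of 25622 with no filter, and 285 and 245 of 13905 with DESeq2. Without fed KO replicate 2 it had 353 and 171 of 14064. Without fasted WT replicates 2 and 4, which held most pancreatic transcripts, 8 genes were called in fasted KO against fasted WT livers. Of genes measured in WT libraries alone 6 were called there. Requiring 10 reads in all 16 libraries left 4 measured genes, and 1 read in 4 libraries gave 44. With the replicate number as a block the counts were 3, 11, 4, 6 and 0, as without it. Whether the numbers pair the libraries was not tested.

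Values that changed sign were all uncalled. Hist1h2bc in fasted KO against fasted WT became 0.11 with library totals and 0.060 without fasted WT replicates 2 and 4, and ranged over -0.16 to 0.0077 when each library was left out. Its difference of genotype effects became 0.044 without fasted WT replicates 2 and 4. In fed KO against fed WT, with each library left out, Hist1h2bc ranged over -0.022 to 0.048, Hist3h2a over -0.017 to 0.31 and Hist1h1c over -0.14 to 0.55. Hist1h4h in fasted WT against fed WT became 0.14 without fasted WT replicates 2 and 4 and otherwise ranged over -0.26 to 0.024, and Hist2h4 in fasted KO against fed KO over -0.36 to 0.18. The cause was not tested. Of 1605 gene values under 25 settings, 1519 kept direction and call, 39 lost a call and 34 gained one. The 11 measured genes other than Hist1h2bc and Hist1h1c had at most 116 reads in any library, which limits their precision.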
